A study of Mus musculus with 6 samples.

Results

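The genes described here sense double-stranded RNA inside the cell or carry and answer an interferon signal. They are Ifih1, Ddx58, Mavs, Stat2, Irf7, Irf9, Bst2, Eif2ak2 and Adar, chosen by name, and 8 of the 9 were among the 14162 genes with values, matched by Ensembl identifier. Irf7, the transcription factor that amplifies interferon production, was not analysed here. RNA was sequenced from lungs of mouse embryos at stage E12.5, with no sorting of cells named. There were 3 libraries from ShhCre-Dnmt1KO embryos, called Dnmt1KO, and 3 from wild-type controls, called WT. ShhCre is Cre recombinase expressed from the Shh locus, which in the lung is active in the endoderm that forms the epithelium, so mesenchyme, vessels and blood cells in the same tissue are outside its lineage. Dnmt1 encodes the enzyme that copies DNA methylation to new strands. Cre is named for the Dnmt1KO embryos alone, so what the Cre allele does and what the deletion does cannot be told apart. Whether a library stands for 1 embryo is not labelled, and the p-values refer to the spread among libraries, which may be technical.

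As background, cells read long double-stranded RNA as a mark of viral infection. MDA5, the product of Ifih1, and RIG-I, the product of Ddx58, bind such RNA and signal through MAVS on mitochondria to switch on interferon genes. Secreted interferon then acts through a transcription factor that contains STAT2 and IRF9 and binds a short DNA element before the target genes, and those targets include the sensors themselves. When DNA methylation is lost, transcripts of endogenous retroelements can form double-stranded RNA that enters the same pathway, a state called viral mimicry. The comparison of Dnmt1KO with WT asks whether the genes of this pathway stood higher in the lung with the deletion.

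None of the 8 genes passed limma's test over all genes (adjusted p from 0.371 to 1), a test that called 40 of 14162 genes higher, or 0.282%, and 1 lower, or 0.00706% (0.29% together). At an unadjusted p under 0.05, 1 of the 8 was higher (Bst2) and none was lower, against 2.92% higher, 1.6% lower and 4.52% in either direction over all genes, and voom on the recovered reads also called none of the 8. Bst2, which encodes the membrane protein tetherin, stood 1.57-fold higher in Dnmt1KO, with a 95% interval of 1.20 to 2.05 and adjusted p = 0.371. The other 7 genes lay between 0.924-fold and 1.22-fold of WT, and each of their intervals included 1. For the 8 genes the log2 fold changes had a median of 0.067, beside -5.9e-05 over all genes. That background differed with level. Ifih1, Ddx58 and Bst2, the 3 genes in the lowest quartile of mean level, had a median of 0.29. All 3541 genes of that quartile had a median of 0.14, and 68.7% of them had a positive fold change. The other 5 genes had a median of -0.015, the same as the remaining 10621 genes.

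The 6 libraries held between 18192629 and 25597662 reads over the analysed genes. The deposited log2 values convert back to whole reads, and both are given below. The log2 value of Dnmt1 was 15.43 ± 0.13 in the Dnmt1KO libraries and 15.74 ± 0.022 in the WT libraries (SD, n = 3), a log2 difference of -0.31 ± 0.087 (SE, limma adjusted p = 0.507), with all 3 Dnmt1KO libraries below all 3 WT libraries. A whole-gene value in unsorted lung includes cells outside the Cre lineage. Dnmt1KO replicate 1 had almost no reads on the 4 Y chromosome genes examined, at 0.165 reads per 1000000, while the other 5 libraries held 186 to 227, so the groups differed in sex make-up. In unsorted tissue, fewer cells of a type and less RNA per cell cannot be told apart.

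A DNA element through which interferon acts on its target genes was searched for in the promoters of the 9 genes, to show which carry it. The sequences are RefSeq promoters of build GRCm38.p6, each running from 250 bases before the annotated start to 50 after it, and all 9 genes matched, with 12 promoters. The search used the core of the interferon-stimulated response element, GAAANNGAAA, on both strands, and a form with a 1-base gap, GAAANGAAA, which can overlap the first. The first form was found in 5 of the 12 promoters, 1 each of Bst2, Ddx58, Eif2ak2, Ifih1 and Stat2, and in 3.44% of all 32851 promoters of the same length. The second was found in 3 of the 12, of Adar, Ddx58 and Stat2, and in 3.17% of all promoters. Of the 86 promoters that matched genes on a list of interferon-stimulated genes, 34 held the first form. Irf7, Irf9 and Mavs held neither form in these windows. A match is a description of the letters, and nothing measured here shows binding. The windows of 30 bases below are printed 5′ to 3′ on the gene's strand, with the match in capitals.
Bst2, chr8:71537583-71537612, minus strand, 130 bases before the start: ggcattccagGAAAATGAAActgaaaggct
Bst2, chr8:71537577-71537606, minus strand, 124 bases before the start: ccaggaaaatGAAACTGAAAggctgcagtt
Stat2, chr10:128270266-128270295, plus strand, 222 bases before the start, match on the opposite strand: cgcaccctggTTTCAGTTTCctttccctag
Ddx58, chr4:40239804-40239833, minus strand, at base 3 after the start, match on the opposite strand: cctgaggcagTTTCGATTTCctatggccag
Eif2ak2, chr17:78882535-78882564, minus strand, at base 19 after the start: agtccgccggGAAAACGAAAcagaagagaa
Ifih1, chr2:62646206-62646235, minus strand, at base 33 after the start: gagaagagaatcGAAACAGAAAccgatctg
Adar, chr3:89730736-89730765, plus strand, the 1-base-gap form at base 29 after the start of the third of its promoter windows: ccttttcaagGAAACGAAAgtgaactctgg

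Bst2 was the gene of the 8 with the smallest p, and its 250 bases before the start (chr8:71537473-71537722, minus strand, GRCm38.p6) show the overlapping pair of matches as 1 run of 16 capitals. The sequence holds 8 CpG dinucleotides, the form of site on which Dnmt1 acts. The whole 300-base window held 11 CpGs, with an observed-to-expected ratio of 0.516, between the median promoter of the analysed genes, with 20 CpGs and a ratio of 0.735, and the median of all promoters, with 7 and 0.384. The median of the interferon-stimulated list was 6 CpGs and 0.30. Methylation itself was not measured in these libraries.
Bst2 upstream: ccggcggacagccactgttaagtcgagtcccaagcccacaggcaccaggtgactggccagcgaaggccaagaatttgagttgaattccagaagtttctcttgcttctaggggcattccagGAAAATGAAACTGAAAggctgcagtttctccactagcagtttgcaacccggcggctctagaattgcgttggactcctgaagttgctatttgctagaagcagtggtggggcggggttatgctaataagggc

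The sensors come first in the pathway. Ifih1 had 26, 42 and 35 reads in Dnmt1KO replicates 1, 2 and 3 and 44, 31 and 24 in WT replicates 1, 2 and 3, or log2 values of 7.21, 7.75 and 7.42 against 7.48, 7.32 and 6.75. The groups overlapped, with the lowest value in WT replicate 3 and the highest in Dnmt1KO replicate 2. At so few reads counting error is wide: the exact Poisson 95% interval was 15.4 to 35.7 for the library with 24 reads and 32.0 to 59.1 for the one with 44. The log2 difference was 0.28 ± 0.32 (SE, limma adjusted p = 1), or 1.21-fold with an interval of 0.734 to 2.01, so a rise of up to 2.01-fold lay within the interval for the MDA5 gene. With quantile normalization the difference was -0.0042, and without WT replicate 3 it was 0.066.

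For Ddx58, the RIG-I gene, the Dnmt1KO libraries held 169, 134 and 193 reads and the WT libraries 193, 120 and 158. Its log2 values were 9.89, 9.41 and 9.87 against 9.60, 9.25 and 9.45. Dnmt1KO replicates 1 and 3 lay above all WT libraries, and Dnmt1KO replicate 2 lay within them. The log2 difference of 0.29 ± 0.19 did not pass (limma adjusted p = 1, 95% interval -0.14 to 0.72), and with single libraries left out it lay between 0.20 and 0.45, the highest value being without Dnmt1KO replicate 2.

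Mavs, the mitochondrial adaptor that both sensors use, was the steadiest of the 8 genes. The Dnmt1KO libraries held 422, 487 and 510 reads and the WT libraries 675, 526 and 576, at log2 values of 11.21, 11.27 and 11.27 against 11.40, 11.38 and 11.31. All 3 Dnmt1KO libraries lay below all 3 WT libraries, though the whole spread over the 6 was only 0.19. The log2 difference was -0.11 ± 0.091 (limma adjusted p = 1), or 0.924-fold with an interval of 0.799 to 1.07. Mavs and Bst2 were the 2 of 8 genes whose groups did not overlap, in opposite directions, where 8.78% of all genes had groups apart.

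Stat2 and Irf9 encode parts of the transcription factor that interferon activates. Stat2 read numbers were 548, 546 and 531 for Dnmt1KO against 777, 496 and 626 for WT, at log2 values of 11.58, 11.43 and 11.33 against 11.60, 11.29 and 11.43. The libraries of both groups were interleaved, and the log2 difference was 0.0060 ± 0.12 (limma adjusted p = 1, 95% interval -0.26 to 0.27). Irf9 read numbers were 373, 410 and 346 for Dnmt1KO against 603, 319 and 436 for WT. Its log2 values of 11.03, 11.02 and 10.71 lay within the WT values of 11.24, 10.66 and 10.91, and the difference was -0.015 ± 0.17 (limma adjusted p = 1, interval -0.40 to 0.37). For both genes the sign of the difference turned with 1 library left out, so no direction can be read from either.

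Eif2ak2 encodes PKR, the kinase that halts translation when it binds double-stranded RNA. Its reads numbered 495, 473 and 724 for Dnmt1KO against 511, 484 and 806 for WT, at log2 values of 11.44, 11.23 and 11.77 against 11.00, 11.26 and 11.79. Dnmt1KO replicate 3 and WT replicate 3 were the highest libraries of their groups and close to each other, and the range within WT, 0.80, was the whole range over the 6 libraries. The log2 difference was 0.13 ± 0.21 (limma adjusted p = 1), with an interval of -0.36 to 0.62. It was -0.019 without Dnmt1KO replicate 3 and -0.047 without WT replicate 1, so its direction rested on single libraries.

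Adar encodes ADAR1, which edits adenosine to inosine in double-stranded RNA and so keeps a cell's own RNA from MDA5. Its reads numbered 1333, 1368 and 1268 for Dnmt1KO against 1918, 1350 and 1638 for WT, the most of the 8 genes. Its log2 values were 12.86, 12.76 and 12.58 against 12.91, 12.74 and 12.82, and the groups overlapped. The log2 difference was -0.085 ± 0.10 (limma adjusted p = 1), or 0.943-fold with an interval of 0.808 to 1.10, and it was -0.15 without Dnmt1KO replicate 1. The gene makes a short constitutive and a long interferon-induced form, and a gene total does not separate them. In the GRCm38 annotation 16.8% of its exon bases overlap Chrnb2 on the other strand, and whether the counting used strand is not given in the sources used here.

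Bst2, the last gene in the pathway, encodes tetherin, an interferon target that holds enveloped virus particles at the cell surface. The Dnmt1KO libraries held 208, 178 and 223 reads and the WT libraries 153, 123 and 174, at log2 values of 10.19, 9.82 and 10.08 against 9.26, 9.29 and 9.59. All 3 Dnmt1KO libraries lay above all 3 WT libraries, with the nearest pair being Dnmt1KO replicate 2 and WT replicate 3. The log2 difference was 0.65 ± 0.17 (SE, limma unadjusted p = 0.0044, adjusted p = 0.371). Permuting the library labels gave an exact two-sided p = 0.1, and no smaller p is possible with 3 libraries per group. Groups lay apart with Dnmt1KO higher in 4.79% of all genes. Without Dnmt1KO replicate 1 the difference was 0.57 (limma adjusted p = 0.973), and over the alternatives that kept the gene it ran from 0.51 to 0.75, with adjusted p from 0.319 to 0.973.

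**Figure D1:**
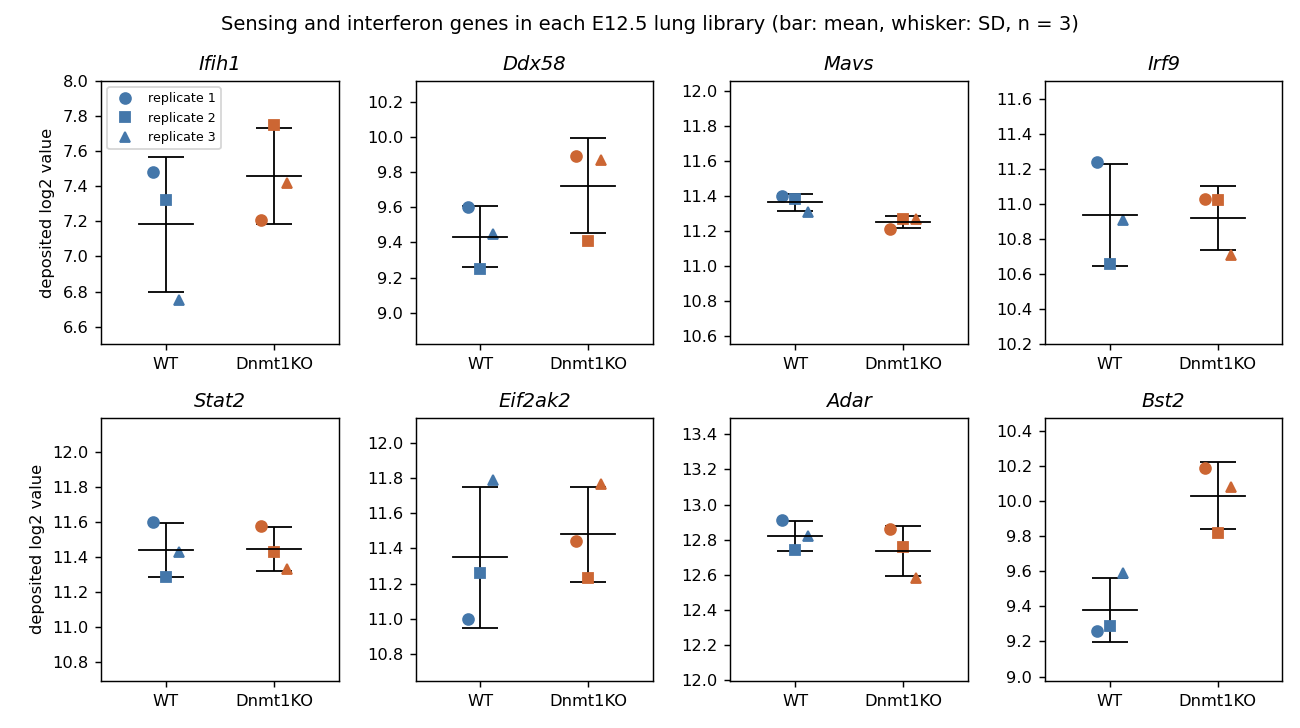
Deposited log2 values of 8 genes in each library, WT in blue and Dnmt1KO in orange, with the replicate number as marker shape. Each panel spans the same height of log2 units, the bar is the mean and the whisker the SD (n = 3). Bst2 lies between 9.82 and 10.19 in Dnmt1KO and between 9.26 and 9.59 in WT, Mavs is slightly lower in Dnmt1KO, and the groups overlap in the other 6 genes.

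**Figure D2:**
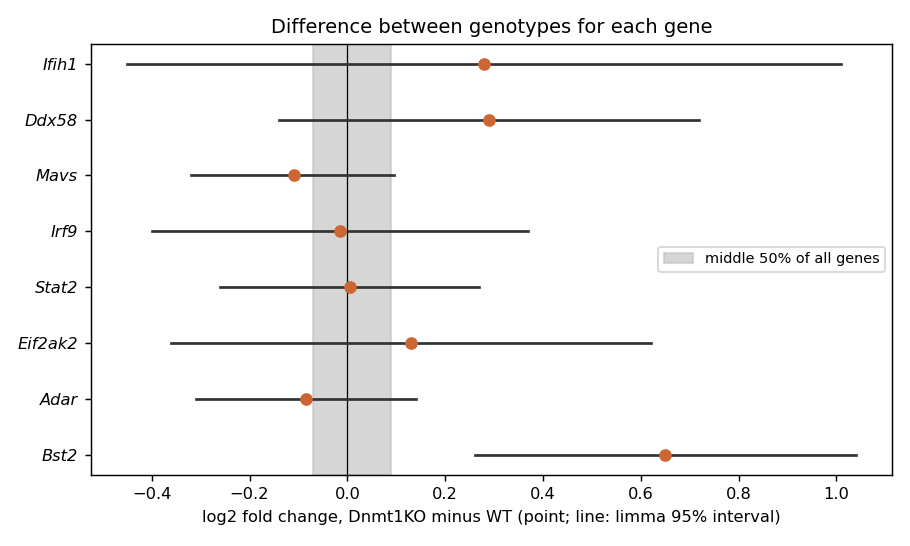
Log2 fold change of each gene, Dnmt1KO minus WT, as a point with limma's 95% interval as a line. The grey band holds the middle 50% of all 14162 genes, from -0.071 to 0.090. The Bst2 interval, 0.26 to 1.04, is the one that does not include 0, and it is not adjusted for the number of genes.

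The genes also differed in level. Levels were taken per kilobase of exon and per 1000000 analysed reads. Exon length joined all exons of a gene in GENCODE's GRCm38 annotation, so the order of genes depends on the exons annotated. The WT means (SD, n = 3) were 8.67 ± 0.579 for Adar, 7.65 ± 0.228 for Mavs and 7.18 ± 0.980 for Bst2. Next came Eif2ak2 at 5.10 ± 1.51, Stat2 at 4.58 ± 0.530 and Irf9 at 3.58 ± 0.753. The sensors were lowest, with Ddx58 at 0.954 ± 0.122 and Ifih1 at 0.174 ± 0.0428. Adar lay above Mavs in every WT library, and Ddx58 and Ifih1 were apart from each other and from the 6 genes above. The WT libraries overlapped between Mavs and Bst2, between Bst2 and Eif2ak2, between Eif2ak2 and Stat2 and between Stat2 and Irf9. They also overlapped between Adar and Bst2 and between Eif2ak2 and Irf9. In Dnmt1KO, Bst2 came first on this scale, at 11.4 ± 1.46, ahead of Adar at 8.27 ± 0.807.

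Around these genes, 5 lists of pathway genes were examined in the same fit, and none of their genes passed the test in either direction. Of 27 measured sensors and adaptors on a list of 30, 15 were on the positive side, and the list's median log2 fold change was 0.023. That median had no stable sign, being -0.020 without Dnmt1KO replicate 1 and 0.087 without Dnmt1KO replicate 3. At an unadjusted p under 0.05, 1 of the 27 was higher, beside 2.92% of all genes. That gene, Aim2, a sensor of double-stranded DNA, stood at 8.75 ± 0.21 in Dnmt1KO and 8.18 ± 0.17 in WT (SD, n = 3), a difference of 0.57 ± 0.21 (limma adjusted p = 0.904). The antiviral RNA-binding protein gene Zc3hav1 (0.41 ± 0.26), the STING gene Tmem173 (0.20 ± 0.14) and Nlrx1, which encodes a mitochondrial inhibitor of MAVS (0.21 ± 0.15), each had limma adjusted p = 1. Without Dnmt1KO replicate 1 these differences were 0.24 for Zc3hav1, 0.11 for Tmem173 and 0.10 for Nlrx1. The endosomal sensor gene Tlr3 differed by 0.088 ± 0.29, and by -0.12 without that library. Dhx58, which encodes the remaining RIG-I-like receptor, differed by -0.15 ± 0.27, which was -0.38 without Dnmt1KO replicate 1, and Irf3, the factor that MAVS activates, by -0.11 ± 0.085, both with adjusted p = 1.

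The list of genes that bind, edit or degrade double-stranded RNA had 23 measured genes of 32 and a median of -0.025, which turned to 0.017 without Dnmt1KO replicate 2 and to 0.013 without WT replicate 2. Adad1, a testis relative of the ADAR enzymes, was read 25, 23 and 18 times in Dnmt1KO libraries and 9, 11 and 9 times in WT libraries, a log2 difference of 1.35 ± 0.41 (limma adjusted p = 0.591), the highest of any gene on the 5 lists. The groups lay apart, but the value depends on few reads, and with quantile normalization it was 0.77. Pnpt1, which encodes a nuclease that limits mitochondrial double-stranded RNA, differed by 0.38 ± 0.14 (adjusted p = 0.856). Oasl2, an oligoadenylate synthetase-like gene, differed by 0.67 ± 0.37 (0.46 without Dnmt1KO replicate 1), and Adarb2, a catalytically inactive ADAR relative, by 0.71 ± 0.42, both with limma adjusted p = 1 and overlapping groups.

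Receptors and signalling genes had the narrowest range of differences of the 5 lists. The list had 25 measured genes of 35 and a median log2 fold change of 0.014, with a range of -0.22 to 0.25, and the median was 0.065 without Dnmt1KO replicate 3. None of the interferon genes on the list (Ifnb1, Ifna1, Ifna2, Ifna4, Ifnk, Ifne, Ifng, Ifnl2 and Ifnl3) was analysed here. The type I receptor genes Ifnar1 and Ifnar2 differed by 0.014 ± 0.083 and 0.062 ± 0.087, the type III receptor gene Ifnlr1 by 0.25 ± 0.22 (0.15 without Dnmt1KO replicate 1) and its partner Il10rb by 0.19 ± 0.14. The phosphatase genes Ptpn11 and Ptpn1, which act on many receptors, differed by -0.22 ± 0.072 (limma adjusted p = 0.703) and -0.15 ± 0.079 (adjusted p = 1). Groups lay apart with Dnmt1KO lower in these 2 phosphatase genes and with Dnmt1KO higher in Ifnar2 and Il10rb, out of 25, beside 3.99% and 4.79% of all genes.

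Interferon-stimulated genes are the output of the pathway, and 53 of the 82 listed were measured, 7 of them among the 8 genes above. Isg15, Ifit1, Ifit3 and Mx1 were not analysed here. At an unadjusted p under 0.05, 1 of the 53 was higher (Bst2) and none was lower, beside 2.92% and 1.6% of all genes. Their median log2 fold change was 0.14, and 34 of 53 had a positive fold change, where 7076 of all 14162 genes had one. The 34 genes of the list among the 25% of all genes with the lowest mean values had a median of 0.29, beside 0.14 for all 3541 genes of that level. The other 19 had a median of -0.010, beside -0.015 for the remaining 10621 genes. Low expression and list membership thus moved together, and the part of each was not tested. Groups lay apart with Dnmt1KO higher in 7 of the 53 and with Dnmt1KO lower in none, against 4.79% and 3.99% of all genes.

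Among single targets, Sp110, a nuclear body gene, differed by 0.93 ± 0.41 (limma adjusted p = 1), and the difference was 0.52 without Dnmt1KO replicate 1, where it had 84 reads, against 52 and 31 in the other Dnmt1KO libraries. The ADP-ribosyltransferase gene Parp10 differed by 0.66 ± 0.30 and the galectin gene Lgals9 by 0.44 ± 0.21, both with adjusted p = 1, or by 0.44 and 0.27 without Dnmt1KO replicate 1. Ifitm1, whose protein blocks virus entry, lay on the other side at -0.31 ± 0.15 (limma adjusted p = 1). Rsad2, the viperin gene, was read 51, 25 and 46 times in Dnmt1KO libraries and 19, 25 and 53 times in WT libraries, so the groups overlapped in part, and the difference was 0.61 ± 0.47 (adjusted p = 1), or 0.35 without Dnmt1KO replicate 1. Reads of the Ifitm, Slfn and Gbp families may be divided uncertainly between near-identical copies.

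The sensors also activate NF-kappaB, and 11 of 18 listed targets were measured, with a median log2 fold change of 0.094. That median was 0.028 without WT replicate 2 and -0.017 with sample weights. Bcl3, a co-regulator of NF-kappaB, stood at 9.35 ± 0.22 in Dnmt1KO and 8.71 ± 0.26 in WT (SD, n = 3), a difference of 0.63 ± 0.21 (limma adjusted p = 0.702). Relb differed by 0.46 ± 0.20, Tnfaip3, the A20 feedback inhibitor gene, by 0.35 ± 0.21, and Tnip1, which encodes an A20 partner, by 0.19 ± 0.12, each with limma adjusted p = 1. Groups lay apart with Dnmt1KO higher in Bcl3, Relb and Tnfaip3, 3 of the 11, beside 4.79% of all genes.

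**Figure D3:**
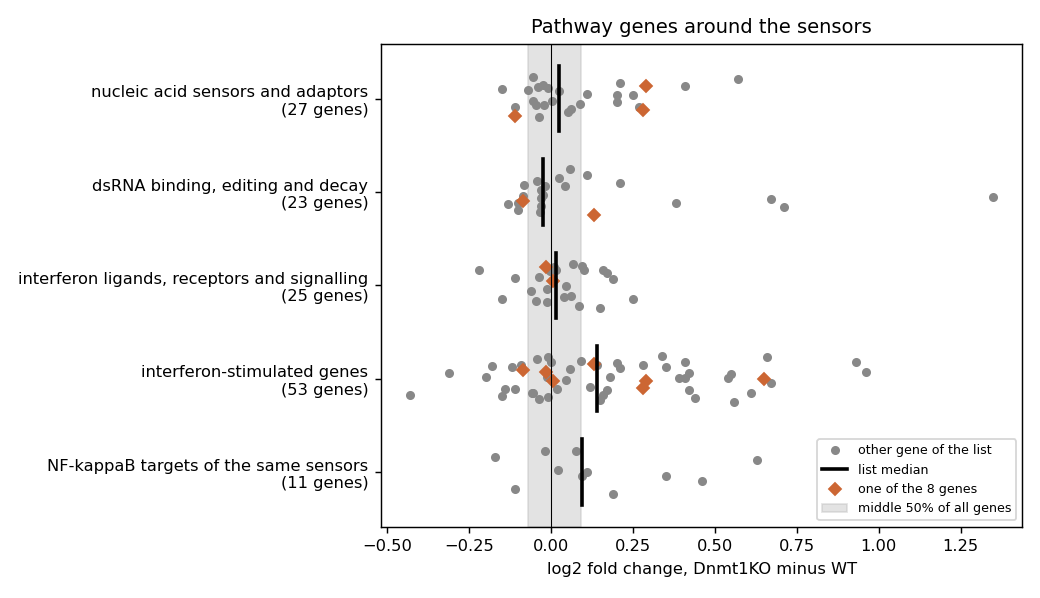
Log2 fold change of every measured gene on 5 pathway lists, Dnmt1KO minus WT, with list medians as black bars and those of the 8 genes that are on a list as diamonds. The grey band holds the middle 50% of all genes. List medians lie between -0.025 and 0.14, and the point farthest right is Adad1 at 1.35, none of the genes having passed the test.

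Marker genes of other cells were read beside Bst2. Macrophage markers, led by Csf1r, were present in every library and summed to 209 to 226 reads per 1000000 in Dnmt1KO and 209 to 233 in WT, with 9 of 17 positive and a median log2 fold change of 0.028. Endothelial markers had a median of 0.026, and mesenchymal markers one of -0.00010. Lung epithelium markers, the lineage of the deletion, had all 18 genes measured, the lung factor gene Nkx2-1 among them, with reads in every library and a median of -0.14, with medians of -0.25, -0.36 and 0.17 relative to the WT mean in Dnmt1KO replicates 1, 2 and 3. At an unadjusted p under 0.05, 5 of the 18 were lower and 1 was higher, beside 1.6% and 2.92% of all genes. The lowest difference was that of Foxa1, at -1.51 ± 0.32 (limma adjusted p = 0.223). Another marker of this list had its smallest limma adjusted p, at 0.0589. Erythroid markers were positive in 16 of 16 genes, with a median of 0.51. Their sum ran from 2160 to 3760 reads per 1000000 in Dnmt1KO and from 1630 to 2320 in WT. Liver markers were positive in 4 of 4 measured genes, with a median log2 fold change of 2.48. At an unadjusted p under 0.05 all 4 were higher, beside 2.92% of all genes, and the smallest limma adjusted p was 0.0879. Groups lay apart with Dnmt1KO higher in 3 of the 4, beside 4.79% of all genes. Their sums were 14.9 to 28.6 reads per 1000000 in Dnmt1KO and 3.01 to 5.29 in WT, so the sums separated the groups as Bst2 did. None of the genes on these marker lists passed the test, and no measured macrophage, erythroid or liver marker was at 0 reads in any library. Of the listed markers, 1 macrophage, 1 erythroid and 6 liver genes were not analysed here. The part of liver, erythroid and epithelial RNA in the Bst2 difference was not tested.

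**Figure D4:**
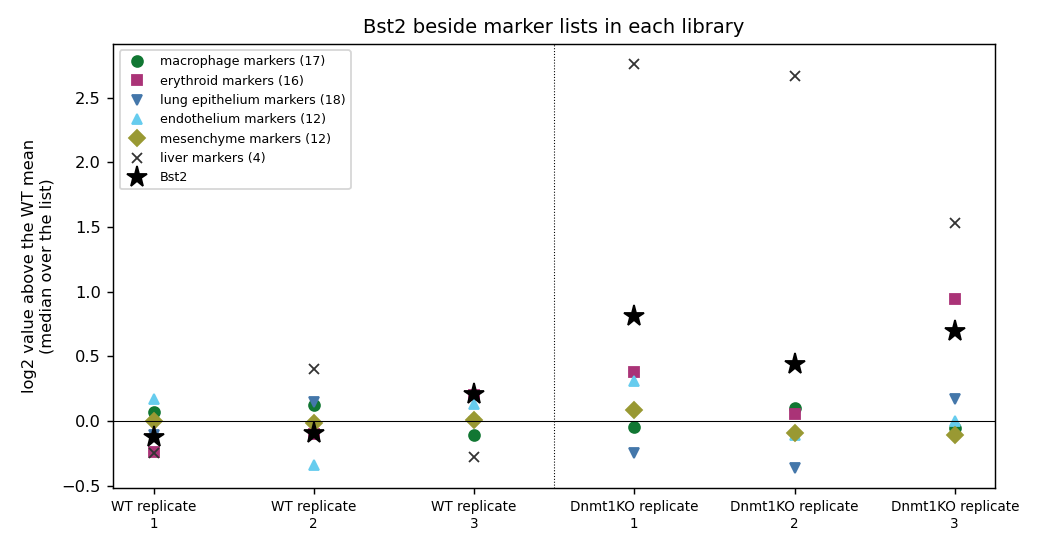
Log2 value relative to the WT mean in each library, for Bst2 as a star and for 6 marker lists as the median of their measured genes (number in brackets). Bst2 and the liver list are higher in all 3 Dnmt1KO libraries than in any WT library, and the macrophage list lies between -0.11 and 0.12 over the 6 libraries.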

How the data were processed

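The authors deposited 1 table per library with Ensembl identifiers and a signal, read here as log2 values from their range of 1 to 18.4. The submitters' processing notes name STAR, limma and mm9. The counter, annotation, gene filter and scaling are not stated there. Raising 2 to each value gave a whole number of reads plus 0.5, times a constant of the library, in 100% of genes within 1e-06 reads. The lowest gene total was 60 reads.

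Symbols came from a GENCODE GRCm38 table, which named 13967 of 14162 identifiers. The log2 values were fitted with limma 3.58.1 in R 4.3.3, with genotype as the only term, trend and robust moderation, and Benjamini-Hochberg adjustment over all genes (threshold 0.05). Tested on 5 simulated data sets of 14162 genes for this comparison, the fit recovered 68.0% of 1.5-fold and 90.0% of 2-fold changes. Of its calls, 6.69% were false. These rates were not split by level, so they do not give the recovery for genes of low level such as Ifih1, Ddx58 and Bst2. The simulation gave genes of like level the same spread and drew each library independently, so its rates need not hold for the measured libraries. In the measured libraries Bst2, at 1.57-fold, had limma adjusted p = 0.371. The 4 measured liver markers, at log2 fold changes of 1.69 to 3.18, did not pass either (smallest limma adjusted p = 0.0879). Reads totalled 18192629 to 25597662 per library, and read intervals cover counting error only.

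The genes, lists and tests were chosen with earlier results of these data known. Named were Dnmt1, the 8 measured genes, up to 4 other genes per pathway list with the smallest p, a set of interferon reporters and receptors (1 of them not reported here), and 3 genes of the most similar profile. Alternatives were a replicate block, a filter on low values, other scalings, voom on the reads with TMM scaling, other moderation, sample weights and leaving out each library. The block was not used in the fit, because the replicate numbers did not pair the libraries.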

Additional observations from a re-analysis of the deposited data

How the results depend on the processing

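None of the 8 genes passed limma's test under any of the 14 alternatives, and their median log2 fold change ran from -0.015, once the 25% of genes of lowest mean level were dropped (5 of the 8 left), to 0.11, without WT replicate 1. Bst2 was among the 3 genes that this filter removed. Replicate numbers did not pair the libraries (correlations of same-numbered deviations -0.003, -0.18 and 0.306), and of the Dnmt1KO libraries replicate 3 alone correlated best with its own number in WT. With the replicate block 26 genes were called higher and 0 lower over all genes, and Bst2 had adjusted p = 0.391. The count of genes called higher was 0 with the lowest 25% removed and 24 with voom, and 15 to 42 in turn without single libraries. The count called lower was 0 with the lowest 25% removed, 0 without trend and robust estimation, 12 with sample weights, and 0 to 17 without single libraries. Causes were not tested.

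Signs turned for 7 genes, each with a difference smaller than its standard error. With single libraries left out their log2 fold changes ran from -0.068 to 0.086 for Stat2, -0.15 to 0.14 for Irf9, -0.047 to 0.35 for Eif2ak2, 0.066 to 0.43 for Ifih1, -0.12 to 0.27 for Tlr3, -0.38 to 0.075 for Dhx58 and -0.021 to 0.070 for Ifnar1. Stat2 was -0.0043 with voom. Irf9 was 0.00057 with read totals and 0.059 with sample weights. Eif2ak2 was -0.14 with sample weights. Ifih1 was -0.0042 with quantile normalization. Tlr3 was -0.091 with quantile normalization. The median of the interferon-stimulated list was 0.032 with quantile normalization and that of the sensor list -0.026 with the lowest 25% removed.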

Other observations

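Some of the genes varied together over the 6 libraries, and others in opposite directions. Irf9 had Pearson's r of 0.93 with Stat2 and 0.80 with Adar, and Stat2 had 0.83 with Adar. These genes take part in interferon signalling and in editing of its RNA trigger. The value of each was highest in WT replicate 1, and all genes of a library share its scaling constant. Eif2ak2 had negative r with these genes (-0.54 with Irf9, -0.42 with Stat2 and -0.53 with Adar), and Ddx58 had 0.76 with Bst2. The r of largest size was negative, at -0.96 between Mavs and Bst2, whose groups lay apart in opposite directions. Mavs had -0.62 with Ddx58, and Ifih1 had -0.61 with Eif2ak2. These are 28 pairs over 6 libraries from both groups, given as a description.

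A search for profiles most like the mean of the 8 genes covered 10357 other named genes, without the 25% of lowest mean level. The 3 highest were Cpm, a membrane carboxypeptidase (r = 0.988 over 6 libraries), Scamp5, a secretory carrier protein (0.984), and Crlf3, a cytokine receptor-like factor (0.975). With so many genes and 6 libraries, high r can arise by chance, and these are given as a description. The mean of the 8 genes was highest in Dnmt1KO replicate 1, at 0.12 above the average of all libraries, and lowest in WT replicate 2, at -0.16. It was 0.028 and 0.071 in Dnmt1KO replicates 2 and 3 and 0.00063 and -0.053 in WT replicates 1 and 3. The groups thus lay apart in this mean, but not in the median of the same genes relative to the WT mean. That median was 0.089, -0.014 and 0.075 in Dnmt1KO replicates 1, 2 and 3 and 0.12, -0.092 and -0.0075 in WT. The largest differences of the 8 were those of Bst2, Ddx58 and Ifih1, the 3 genes in the lowest quartile of mean level.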
